A study of Mus musculus with 22 samples.

Results

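Of 22 RNA sequencing libraries in a mouse series on pancreatic cancer, 9 came from animals wild type (WT) for microRNA-21, and these 9 are compared here. They were chosen by their genotype label alone. The set holds 4 whole tumors, from animals KPC190, KPC202, KPC232 and KPC248, and 5 cancer cell lines, from animals KPC190, KPC202, KPC204, KPC232 and KPC247. By title, 3 animals (KPC190, KPC202 and KPC232) gave both a tumor and a line. The series also holds 8 tumors and 5 lines without microRNA-21, which enter only the last comparison. The question is which transcripts stand higher in the tumor as it was dissected and which in the cancer cells grown from it.

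Per the labels, the mouse line was Bl6 for all 9 libraries, and neither animals nor lines were treated. Tumors came from animals with symptoms, and their RNA was extracted with TRIzol after snap-freezing. For a line, cells of a dissociated tumor were passaged at least 8 times to lose fibroblasts, and recombined driver alleles, that of p53 among them, with loss of heterozygosity, were then shown by genotyping. The lines were harvested without treatment between passages 10 and 14, in medium with 5% serum. Ages, the promoter that drives recombination and the kind of p53 allele are not given in the sources used here. Each line is 1 culture from 1 tumor, so the spread among lines is that among animals and among cultures together.

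Pancreatic ductal carcinoma is a gland-forming epithelial cancer that grows within a dense stroma of fibroblasts, vessels and immune cells, so the cancer cells are often a minority of the tissue. A line keeps the cancer cells and removes these neighbours, the matrix and the limited supply of nutrients and oxygen of the tissue. In bulk RNA, fewer cells of a type and less RNA per cell cannot be told apart, and a transcript in a tumor library may come from the cancer cells or from any other cell of the tissue.

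Library totals were similar in both kinds of sample, from 27332257 to 29987227 counts in tumors and from 25468350 to 28888902 in lines. Tumors held the wider range of transcripts. Between 14316 and 15160 genes reached 1 CPM in a tumor (counts scaled to the library total), against 11981 to 12598 in a line. The difference of 2421 genes in the means had an exact two-sided permutation p of 0.0159 (n = 4 and 5), which no arrangement of these samples can lower. The most abundant gene in every tumor was Clu, which encodes the secreted chaperone clusterin. Clu was also the most abundant gene in the lines of KPC204, KPC232 and KPC247.

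Of 16194 genes tested with edgeR, 3241 (20.0%) were higher in tumors and 2261 (14.0%) were lower, at an adjusted p under 0.05. The remaining 10692 were not called. Each count of list members below is to be read beside these shares over all genes. When the test asked for a difference beyond 2-fold, 1857 genes (11.5%) were higher and 245 (1.51%) lower. With a filter of a mean of at least 1 CPM these counts were 1507 and 215, and without the low-count filter 2414 and 253. Genes nearly absent from lines are tested through the tumors alone and are part of the higher count. The share of it that they supply was not tested. Higher genes made up 58.9% of the calls, and 62.8%, 69.7% and 69.5% with RLE factors, upper quartile factors and library totals alone, which moved the median of all genes by 0.05, 0.14 and 0.13 on the log2 scale. In 3116 genes (19.2%) all 4 tumors stood above all 5 lines, and in 1939 (12.0%) all stood below. Within the 3 animals that gave both samples, 3200 of the 3241 higher genes and 2236 of the 2261 lower genes kept their direction in every animal. The same libraries had given the calls, so this agreement was largely set beforehand and is not separate support. The called higher genes took 15.3% to 17.3% of tumor counts and 4.28% to 5.76% of line counts. The called lower genes took 16.4% to 18.6% of tumor counts and 29.3% to 33.9% of line counts.

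**Figure D1:**
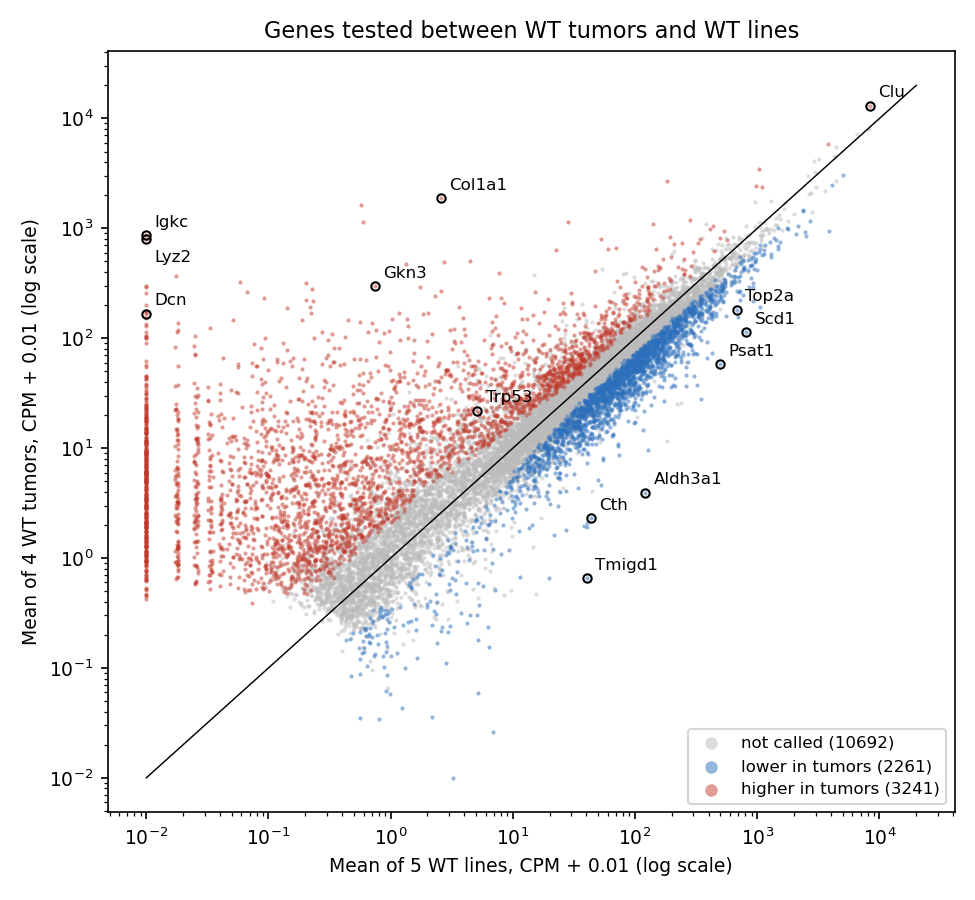
Mean CPM of the 5 WT lines (x axis) and of the 4 WT tumors (y axis) for the 16194 genes tested, both plus 0.01 and on log scales; the line marks equal levels and colours mark the call. Genes far above the line, such as Igkc, Lyz2 and Dcn, had 0 counts in all lines, and genes such as Top2a and Psat1 lie below it.

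Many of the transcripts that lines lacked are known from cells of the stroma, the blood and the immune system. Lyz2, the lysozyme of macrophages and neutrophils, stood at 426, 1287, 475 and 1034 CPM in the tumors of KPC190, KPC202, KPC232 and KPC248 and had 0 counts in all 5 lines. All values per tumor below follow this order of animals, and values per line follow the order KPC190, KPC202, KPC204, KPC232, KPC247. Over the 5 lines together, 0 counts allow a level of up to 0.02234 CPM (3 counts of the summed library totals, from counting error only). The cathepsin gene Ctss, with 208, 351, 150 and 320 CPM in tumors, and C1qa, a chain of complement C1q made by macrophages, with 140, 198, 140 and 230 CPM, also had 0 counts in every line. C1qb and C1qc shared that pattern. Such genes enter the test only through the tumors, and their fitted fold changes depend on the model, so levels are given instead.

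Altogether 372 genes, 352 of them protein-coding, reached 1 CPM in every tumor and no more than 3 counts over all 5 lines, and 232 of these had 0 counts in the lines. They took 0.581% to 1.75% of the tumor counts. In the other direction there was 1 such gene, Zic2, a zinc finger transcription factor, with 3 counts over the 4 tumors and 1.12 to 3.96 CPM in the lines.

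Fibroblast transcripts were abundant in tumors and close to 0 in the lines, which had been passaged to lose fibroblasts. Col1a1 (ENSMUSG00000001506.10, mm10 chromosome 11, 94936224 to 94953042), the main chain of type I collagen, stood at 950, 1896, 3214 and 1415 CPM in tumors and 0.722, 1.84, 7.81, 1.12 and 1.33 CPM in lines, a log2 difference of 9.51 ± 0.89 (SE) with an adjusted p of 0.000103. On this scale a difference of 1 is 2-fold. Dcn, the matrix proteoglycan decorin, stood at 138, 256, 118 and 157 CPM in tumors and had 0 counts in the lines. The 19 listed fibroblast genes summed to 3117 to 8011 CPM in tumors and 3.5 to 20.6 CPM in lines. Tumors and lines were separated in the same way for pericyte and smooth muscle genes (177 to 833 CPM against 1.58 to 19.3), such as the pericyte gene Rgs5 at 46.1, 98.7, 40.5 and 142 CPM in tumors and 0 to 0.311 CPM in lines.

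Endothelial genes summed to 548 to 762 CPM in tumors and 14 to 136 CPM in lines. Cdh5, the cadherin of endothelial junctions, stood at 58, 81.4, 63.4 and 55 CPM in tumors and 0 to 0.289 CPM in lines. Most of the list's level in 4 of the 5 lines was Flt1, the VEGF receptor 1 gene, which stood at 131, 1.6, 17, 54.6 and 16.7 CPM in lines and 183, 59.9, 155 and 164 CPM in tumors. Those values overlapped, and Flt1 was not called (log2 difference 1.67 ± 0.90, adjusted p 0.181). It was called without the KPC190 line and with the animal as a block in limma-voom.

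Macrophage genes summed to 2170 to 3953 CPM in tumors and 157 to 360 CPM in lines. Most of that level in 4 of the lines, not in KPC204, was Mrc1, the mannose receptor, at 141, 154, 6.72, 129 and 92.3 CPM in lines and 212, 117, 151 and 121 CPM in tumors. Mrc1 was not called (log2 difference 0.52 ± 0.64, adjusted p 0.559). The defining macrophage genes Lyz2 and C1qa to C1qc were at 0 in the same lines, and which cells or transcripts gave the Mrc1 counts was not tested. Neutrophil genes summed to 122 to 332 CPM in tumors and 0.41 to 2.78 CPM in lines, with the calprotectin gene S100a8 at 22.8, 29, 48.6 and 17.4 CPM in tumors. Genes of MHC class II, which present peptides to helper T cells, summed to 351 to 1739 CPM in tumors and 0.253 to 0.971 CPM in lines. Cd74, the class II chaperone, stood at 154, 637, 87.8 and 414 CPM in tumors and 0 to 0.117 CPM in lines.

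Lymphocyte transcripts varied between tumors. Igkc, the constant region of the kappa light chain, stood at 1351, 1992, 30.2 and 86.6 CPM, and had 0 counts in all lines. The tumors of KPC190 and KPC202 were thus far above those of KPC232 and KPC248. Ighm, the IgM heavy chain, was highest in the KPC202 tumor, at 104, 1232, 68.4 and 54.8 CPM over the 4 tumors. The KPC202 tumor also carried Pax5, a transcription factor of B cells, at 50.6 CPM, where the other tumors had 1.15 CPM or less. Across the 19 T and NK cell genes the tumors summed to 44.5, 272, 40.7 and 60.7 CPM and the lines to 1.94 to 14.8 CPM.

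**Figure D2:**
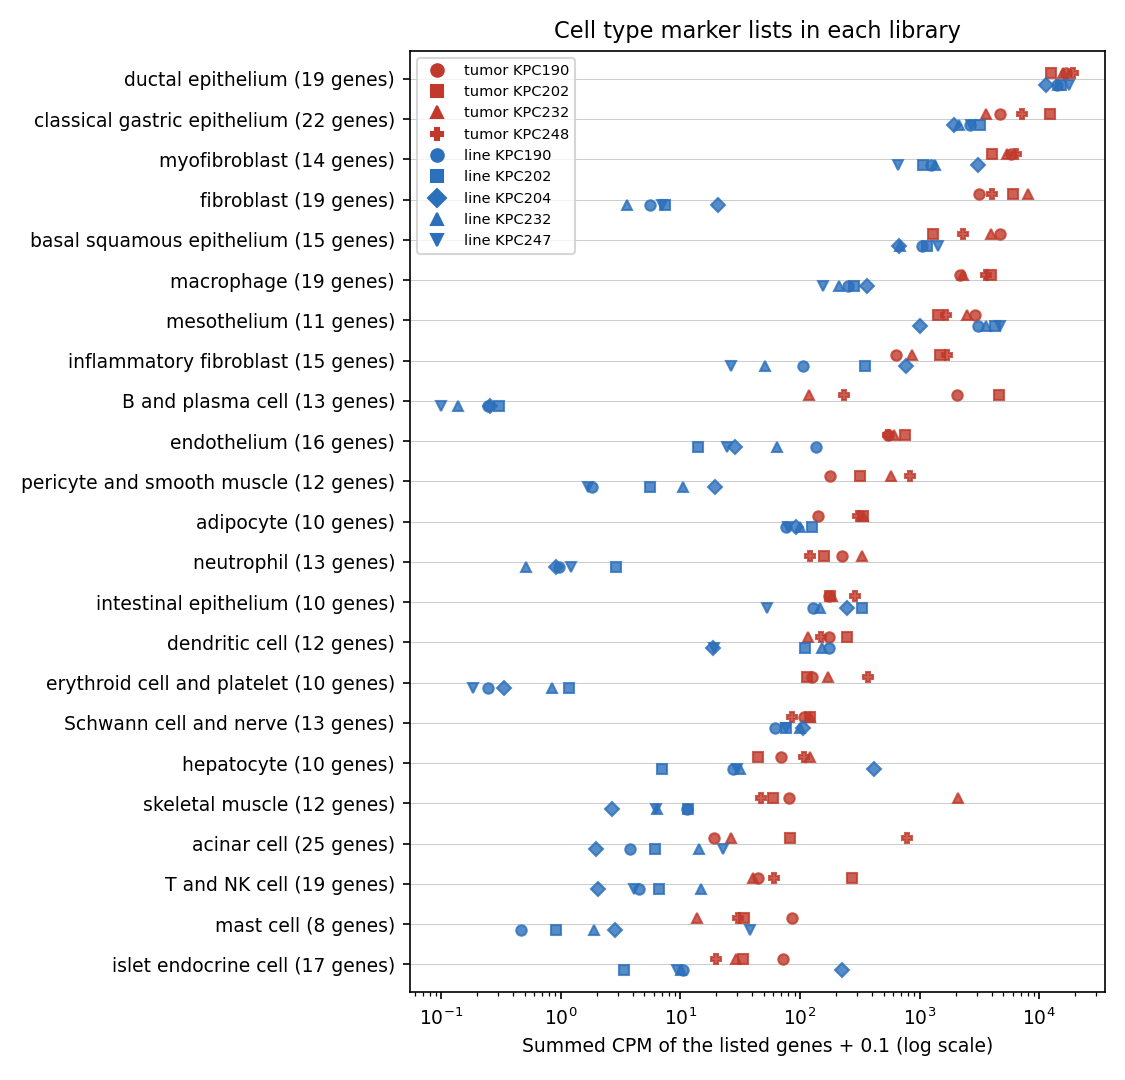
Summed CPM plus 0.1 (log scale, x axis) of every gene of each cell type marker list (y axis), with 1 symbol per library, tumors in red and lines in blue. Fibroblast, neutrophil, B cell and erythroid lists separate tumors from lines by over 10-fold, ductal epithelium overlaps between them, and single libraries stand apart for skeletal muscle (tumor KPC232), acinar cells (tumor KPC248) and hepatocyte and islet lists (line KPC204).

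Transcripts of muscle and acinar cells were high in single tumors. The skeletal muscle list summed to 2085 CPM in the KPC232 tumor and 47.1 to 81.4 CPM in the others, with the giant muscle protein gene Ttn at 6.19, 5.66, 439 and 0.349 CPM in tumors and 0.149 to 0.374 CPM in lines. Genes of acinar cells, which make the digestive enzymes of the pancreas, summed to 789 CPM in the KPC248 tumor against 18.9, 83.1 and 26.5 CPM in the other tumors and 1.86 to 22.8 CPM in lines. In the same tumor the zymogen granule gene Gp2 stood at 157 CPM and the smooth muscle myosin gene Myh11 at 184 CPM. All 7 tested of 12 skeletal muscle genes were called higher by edgeR, against 3 by limma-voom and 1 by DESeq2. In 4 of the 7 every tumor was above every line. The list summed to only 2.56 to 11.5 CPM in lines, and 4 of its 12 genes had 0 counts in all lines. Genes so low in lines pass the filter through the tumors, so these calls were partly set beforehand. The part that such cells play in the other differences was not tested.

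Among the lines, KPC204 stood apart. It held the X-inactivation transcript Xist at 2733 CPM, against 0.205 to 0.397 CPM in the other lines and 0.0952 to 0.447 CPM in the tumors. It also held the chemokine gene Cxcl12 at 445 CPM, where the other lines had 1.04 CPM or less, and the imprinted gene Peg3 at 920 CPM, where they had 0.831 CPM or less. The plasma protein genes Ttr and Alb stood at 223 and 127 CPM in that line. Cxcl12 was above the 4 other lines in every tumor (20.9, 118, 52.5 and 18.6 CPM). It was not called (log2 difference -0.77 ± 2.11, adjusted p 0.806), and without the KPC204 line its fitted difference turned to 7.48 and was called. The Y-linked gene Ddx3y was counted in every tumor (15.8, 38.1, 73.1 and 64.7 CPM) and had 0 counts in the lines of KPC190, KPC202 and KPC204. The KPC190 line held other Y-linked genes, with Kdm5d at 56.2 CPM and Eif2s3y at 62.2 CPM.

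The epithelial identity of the lines was examined with ductal markers. The 19 listed ductal genes summed to 12689 to 19256 CPM in tumors and 11433 to 17651 CPM in lines, so the totals overlapped. The simple-epithelium keratins Krt8, Krt18 and Krt19, and the epithelial cadherin gene Cdh1, were not called. Krt19 (log2 difference -1.01 ± 0.46, adjusted p 0.119) was called lower without the KPC204 line, in the 3 shared animals and with all 22 libraries in 1 fit. Cdh1 stood at 1207, 906, 940 and 765 CPM in tumors and 1009, 1231, 1105, 1046 and 1123 CPM in lines (log2 difference -0.21 ± 0.16, adjusted p 0.331).

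Other epithelial genes were far lower in the lines. Epcam, an epithelial adhesion molecule (mm10 chromosome 17, 87635979 to 87651129), stood at 692, 510, 549 and 795 CPM in tumors and 4.84, 13.3, 70.4, 5.44 and 19.6 CPM in lines, a log2 difference of 4.81 ± 0.79 (SE) with an adjusted p of 0.00164. Every tumor was above every line, and the KPC204 line was the highest of the lines. Cldn4, a claudin of tight junctions, stood at 239, 181, 242 and 183 CPM in tumors and 0.108, 5.12, 29.9, 0.894 and 6.15 CPM in lines (log2 difference 4.64 ± 1.12, adjusted p 0.0108), and Cldn7 at 194, 146, 211 and 280 and 5.96, 60, 16.5, 23.4 and 23.3 CPM (log2 difference 3.01 ± 0.54, adjusted p 0.00268).

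The regulators of this epithelial program differed in the same direction. Grhl2, a transcription factor that maintains epithelial junction genes, stood at 29.3, 38.2, 44.3 and 111 CPM in tumors and 0.903, 0.409, 3.73, 2.31 and 1.49 CPM in lines (log2 difference 4.97 ± 0.66, adjusted p 0.000548). Esrp1, a splicing factor of epithelial cells, stood at 64, 93.6, 61.9 and 115 CPM and 1.7, 19.6, 9.16, 0.298 and 16.2 CPM (log2 difference 3.16 ± 0.89, adjusted p 0.0214). That call was lost in the fit limited to the 3 shared animals, without the low-count filter and at the stricter threshold of 0.01. Ovol1, a repressor of mesenchymal genes, had 3.08 to 8.63 CPM in tumors and 0 to 0.186 CPM in lines. In all, 9 of the 19 ductal genes were higher in tumors and 1 was lower, Tspan8, a tetraspanin (log2 difference -0.98 ± 0.21, adjusted p 0.0052). Their median log2 difference was 0.98, against 0.04 over all genes tested.

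Genes of the mesenchymal transition split. Vim, the intermediate filament of mesenchymal cells and of fibroblasts, stood at 1797, 537, 944 and 416 CPM in tumors and 2351, 2350, 2512, 2816 and 2163 CPM in lines, lower in each tumor than in each line (log2 difference -1.40 ± 0.38, adjusted p 0.019), while the fibroblast lists described above were higher in tumors. The call was lost in the fit limited to the 3 shared animals and at the stricter threshold of 0.01. Twist2, a mesenchymal transcription factor, was lower in tumors at 0.707, 0.959, 1.62 and 1.01 CPM against 10.9, 14.1, 5.16, 7.68 and 2.41 CPM (log2 difference -2.90 ± 0.56, adjusted p 0.00356). The neural cadherin gene Cdh2 (log2 difference -2.03 ± 0.66, adjusted p 0.0377) and the receptor kinase gene Axl (log2 difference -1.30 ± 0.40, adjusted p 0.0302) were lower too, but each of these calls was lost under many alternatives. The Cdh2 call was lost at the stricter threshold of 0.01, without the low-count filter, in the 3 shared animals, without any 1 line except that of KPC202 and without any 1 tumor except that of KPC190. The Axl call was lost with limma-voom, with the animal as a block in edgeR, at the stricter threshold of 0.01, without the line of KPC204 or KPC232 and without any 1 tumor. Leaving out the line of KPC204 or KPC232, or the tumor of KPC202, KPC232 or KPC248, left 2 of the 4 lower calls of the list.

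Snai1, a transcription factor that represses Cdh1, went the other way, at 9.12, 9.65, 9.93 and 8.95 CPM in tumors and 0.0373 to 0.409 CPM in lines (log2 difference 5.51 ± 0.67, adjusted p 0.000318). The matrix genes of this list were higher in tumors, with the fibrillin gene Fbn1 at 103, 205, 218 and 141 CPM against 0.54 to 3.48 CPM. Of the 15 genes, 7 were higher and 4 lower, with a median of 0.76.

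Mucous and gastric genes, which mark the classical subtype of this cancer, were partly higher in tumors. Dmbt1, a secreted mucosal glycoprotein, stood at 1772, 4274, 903 and 3824 CPM in tumors and 200, 499, 111, 62.2 and 31.7 CPM in lines (log2 difference 3.90 ± 0.81, adjusted p 0.00526). Gkn3, a gastrokine, stood at 75.4, 684, 116 and 321 CPM and 1.16, 0.778, 0.0777, 0.447 and 1.2 CPM (log2 difference 8.67 ± 0.91, adjusted p 0.000187), and the mucin gene Muc6 at 34.8, 679, 2.22 and 209 CPM, against 0 to 0.332 CPM. The tumor of KPC202 was the highest for all 3. The trefoil peptide gene Tff2 (log2 difference 5.19 ± 1.23, adjusted p 0.0101) and the disulfide isomerase gene Agr2 (log2 difference 5.76 ± 1.55, adjusted p 0.0174) were also higher, but the Tff2 call was lost with the animal as a block in edgeR, and the Agr2 call without the low-count filter and in the 3 shared animals. Both calls were lost at the stricter threshold of 0.01.

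The list also held 3 genes that were lower in tumors. Hnf4a, a nuclear receptor of gut and liver epithelium, stood at 297, 217, 215 and 231 CPM in tumors and 465, 495, 548, 523 and 430 CPM in lines, without overlap (log2 difference -1.04 ± 0.15, adjusted p 0.000851). Foxa2, a forkhead factor of endoderm, stood at 54.6, 33.7, 40.7 and 28.3 CPM and 65.1, 70.4, 140, 87.1 and 124 CPM (log2 difference -1.31 ± 0.29, adjusted p 0.00684). The surface protein gene Vsig1 was lower as well (log2 difference -1.96 ± 0.34, adjusted p 0.00197). The trefoil peptide gene Tff1, at 285, 1485, 352 and 214 CPM in tumors and 195, 217, 12.7, 357 and 217 CPM in lines, was not called (log2 difference 1.55 ± 0.80, adjusted p 0.164). Muc5ac, a secreted mucin gene, and Cldn18 ranged over more than 10-fold within each kind of sample and were not called. Of 21 tested genes of the list, 11 were higher and 3 lower, with a median of 1.66.

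The genes Lama3 and Lamb3, which encode laminin chains that anchor epithelial cells to the basement membrane, were higher in tumors. Lama3 stood at 556, 139, 905 and 382 CPM in tumors and 0.542, 6.18, 4.89, 0.559 and 1.45 CPM in lines (log2 difference 7.51 ± 0.95, adjusted p 0.000432). Lamb3 stood at 584, 125, 601 and 324 CPM and 25.2, 70.8, 48.5, 52.6 and 39.8 CPM (log2 difference 3.11 ± 0.46, adjusted p 0.00092). The laminin-binding integrin genes Itga6 (log2 difference 0.11 ± 0.34, adjusted p 0.828) and Itgb4 (log2 difference 0.94 ± 0.42, adjusted p 0.11) were not called, though Itgb4 was called with the animal as a block in limma-voom and with all 22 libraries in 1 fit. Sfn, the epithelial 14-3-3 protein sigma, stood at 33.3, 46.3, 61.5 and 99.7 CPM against 1.59, 3.15, 6.83, 1.53 and 4.28 CPM (log2 difference 4.11 ± 0.52, adjusted p 0.000418).

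Lamc1, the gamma chain of the common laminins, went the other way, with 251, 231, 268 and 193 CPM in tumors and 482, 502, 503, 493 and 524 CPM in lines (log2 difference -1.09 ± 0.14, adjusted p 0.000405). The basement membrane collagen genes Col4a1 (log2 difference -0.28 ± 0.17, adjusted p 0.21), Col4a2 (log2 difference -0.02 ± 0.19, adjusted p 0.955) and Col18a1 (log2 difference 0.29 ± 0.31, adjusted p 0.507) were not called, and each was above 300 CPM in every line. The exons of Col4a1 and Col4a2 overlap on opposite strands, so their counts may be mixed. Of the 25 tested collagen genes 19 were higher in tumors and 0 lower. Tumors also carried Fn1, fibronectin, at 4631, 2302, 2459 and 4596 CPM against 931, 548, 2465, 962 and 264 CPM, where the KPC204 line reached the level of the tumors of KPC202 and KPC232. The Fn1 call (log2 difference 1.76 ± 0.55, adjusted p 0.0339) was lost under the stricter threshold, without the low-count filter, without the line of KPC190, KPC202 or KPC232 and without the tumor of KPC190 or KPC248.

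Genes of the interferon response and of antigen presentation were higher in tumors. Oasl2, an interferon-induced gene of the oligoadenylate synthetase family, stood at 23.4, 23.6, 9.2 and 29.1 CPM in tumors and 0.325, 3.27, 1.24, 0.261 and 1.66 CPM in lines (log2 difference 3.98 ± 0.73, adjusted p 0.00286). Isg15, a ubiquitin-like protein, stood at 10.7, 6.26, 2.54 and 13.3 CPM and 0.181, 1.56, 1.13, 0.335 and 0.125 CPM (log2 difference 3.62 ± 0.82, adjusted p 0.0076). Of 24 interferon genes 19 were higher and 0 lower, with a median of 3.50. In MHC class I presentation, which all nucleated cells carry out, B2m, the light chain, stood at 185, 429, 145 and 255 CPM and 50.2, 115, 124, 86.3 and 48.4 CPM (log2 difference 1.58 ± 0.39, adjusted p 0.0115). The tumors' class I sums were 922, 1879, 826 and 996 CPM and the lines' 355 to 637 CPM, with the KPC202 tumor, the one with the highest lymphocyte lists, highest. The share of these transcripts that came from immune cells was not tested. Among immune checkpoint genes, Cd86, a costimulatory ligand of antigen-presenting cells, had 0 counts in all lines and 4.35, 14.8, 5.11 and 8.39 CPM in tumors, whereas Cd274 (PD-L1) was not called (log2 difference 1.01 ± 0.61, adjusted p 0.224) except without the KPC202 line and in 1 blocked fit. Lgals9, galectin 9, was lower in tumors (log2 difference -0.92 ± 0.20, adjusted p 0.00699).

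Most of the tested Wnt pathway genes were higher in tumors, some ligands and targets among them. Wnt7b, a ligand made by epithelial cells, stood at 155, 71.7, 156 and 377 CPM in tumors and 12, 4.38, 31.6, 4.06 and 6.73 CPM in lines (log2 difference 4.01 ± 0.72, adjusted p 0.00257), and Wnt7a at 45, 48.4, 70 and 93.2 CPM and 3.61, 14.6, 12.1, 17.5 and 6.93 CPM (log2 difference 2.55 ± 0.44, adjusted p 0.00193). The secreted antagonist Sfrp1, a stromal gene, stood at 58, 125, 67 and 72.9 CPM in tumors and 0 to 1.13 CPM in lines. Of the direct transcriptional targets, Axin2 stood at 6.19, 10.6, 7.24 and 17.9 CPM and 0.361, 0.368, 1.01, 0.149 and 0 CPM (log2 difference 4.78 ± 0.89, adjusted p 0.00296), Nkd1 at 3.64, 5.91, 4.19 and 6.32 CPM in tumors with 0 counts in all lines, and Lgr5 at 6.05, 12.9, 6.73 and 10.1 CPM and 1.19, 0.327, 2.68, 0.633 and 1.33 CPM (log2 difference 2.86 ± 0.58, adjusted p 0.00455). Rnf43, a ubiquitin ligase that removes Wnt receptors and is itself a target, was higher at 53.3, 30.9, 33.3 and 30.1 CPM against 18.9, 13.8, 11, 9.24 and 13 CPM (log2 difference 1.48 ± 0.26, adjusted p 0.00218). Lgr5 and Rnf43 belong to other lists. Of 20 tested Wnt genes 15 were higher, 0 lower and 5 not called, with a median of 4.07. The ligand gene Wnt5a overlapped, at 376, 24.3, 18.9 and 22.2 CPM in tumors and 45.9, 1.76, 60.5, 11.6 and 14.7 CPM in lines. Several genes of the list, such as Wnt2 and Sfrp2, had 0 counts in every line and were tested only because of the tumors.

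TGF-beta ligands and targets were partly higher in tumors. Tgfb1, the ligand, stood at 246, 109, 170 and 147 CPM in tumors and 64, 67.1, 67.1, 72.4 and 61.3 CPM in lines (log2 difference 1.34 ± 0.21, adjusted p 0.0013), and its target Pmepa1 at 603, 348, 664 and 501 CPM and 146, 175, 137, 258 and 123 CPM (log2 difference 1.66 ± 0.26, adjusted p 0.00119). The receptor gene Tgfbr2 (log2 difference -0.40 ± 0.20, adjusted p 0.157) and the mediator gene Smad4 (log2 difference -0.20 ± 0.19, adjusted p 0.456) were not called. Altogether 7 of 14 genes were higher and 0 lower, with a median of 1.12.

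The Hedgehog ligand genes were not called, while the transcription factor genes Gli1 and Gli2 and the coreceptor genes Boc and Gas1 were higher in tumors. Of 13 tested genes of the list 4 were higher and 1 lower, with a median of -0.15. Gli2 stood at 1.91, 3.2, 2.95 and 1.43 CPM in tumors and 0 to 0.0373 CPM in lines. Boc stood at 2.97, 5.66, 4.35 and 3.56 CPM in tumors and 0 to 0.0409 CPM in lines. Gli2 and Boc were tested only because of the tumors, so their higher calls were largely set beforehand. Gli1 stood at 2.65, 3.45, 1.46 and 0.804 CPM and 0.144, 0.0409, 0.621, 0.186 and 0.125 CPM (log2 difference 3.20 ± 0.71, adjusted p 0.0072). Exons of Gli1 overlap Arhgap9 on the opposite strand, so its counts are uncertain. Gas1 stood at 42.5, 28.6, 38.1 and 21.4 CPM and 2.71, 8.35, 7.34, 3.73 and 2.74 CPM (log2 difference 2.71 ± 0.41, adjusted p 0.000935). The receptor gene Ptch1 was lower (log2 difference -0.70 ± 0.20, adjusted p 0.0216), a call lost under 7 alternatives, library totals alone, upper quartile factors, the animal as a block in edgeR and the fit without the KPC248 tumor included.

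Among growth factor genes, Vegfa, the main angiogenic factor, stood at 645, 232, 382 and 391 CPM in tumors and 111, 135, 218, 109 and 145 CPM in lines (log2 difference 1.52 ± 0.30, adjusted p 0.00418). The receptor kinase gene Erbb3 stood at 176, 262, 236 and 264 CPM and 60, 109, 109, 66.5 and 80.9 CPM (log2 difference 1.46 ± 0.22, adjusted p 0.00101). Ret, a receptor kinase of nerve growth signals, stood at 49.2, 15.9, 59.7 and 54.4 CPM and 1.19, 1.23, 1.48, 1.01 and 1.04 CPM (log2 difference 5.23 ± 0.39, adjusted p 3.23e-05), and the lines lay close to each other. Fgf1, an acidic fibroblast growth factor, was the growth factor gene that was lower, at 24.4, 11.2, 31.1 and 20.1 CPM in tumors and 106, 110, 142, 134 and 104 CPM in lines (log2 difference -2.46 ± 0.28, adjusted p 0.000266). Erbb2, Met and Igf1r were not called, but Met (log2 difference -0.65 ± 0.24, adjusted p 0.0588) was called lower under 6 alternatives, among them both fits with the animal as a block and the fit without the KPC247 line. Of 24 tested ligand and receptor genes 13 were higher and 1 lower.

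**Figure D3:**
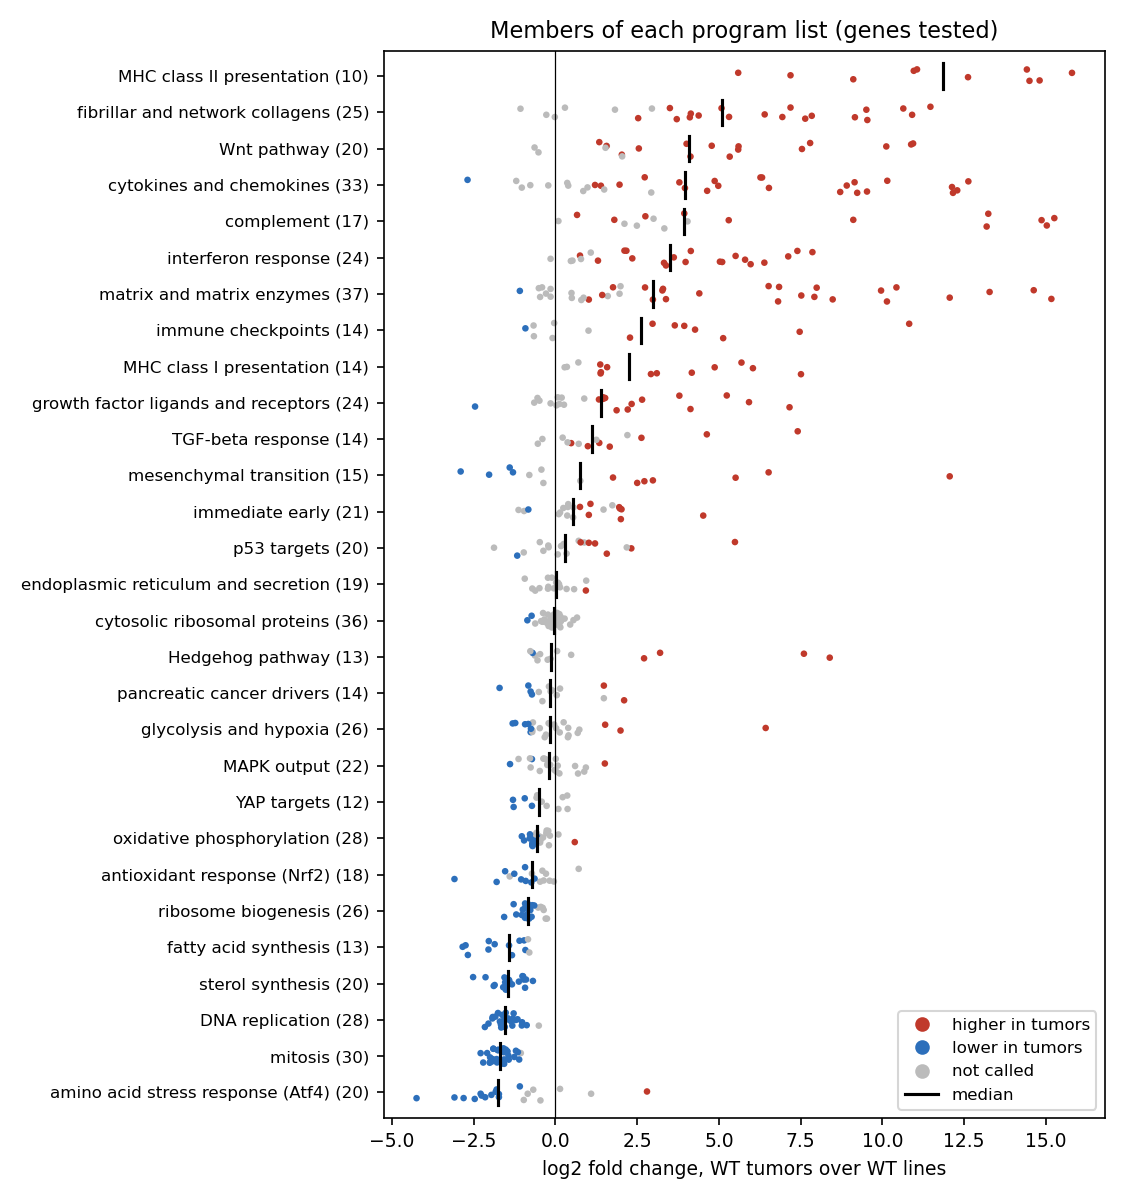
Log2 fold change of WT tumors over WT lines (x axis) for each tested member of the program lists (y axis, number tested in parentheses), with 1 point per gene coloured by call and a bar at the median. Lists at the top include genes with 0 counts in lines, which were tested through the tumors only; in the mitosis, DNA replication, sterol and fatty acid lists 0 genes lie above 0.

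Cell division genes were lower in tumors in nearly every listed case. Top2a, the topoisomerase of dividing cells (ENSMUSG00000020914.17, mm10 chromosome 11, 98992943 to 99024189), stood at 110, 151, 261 and 207 CPM in tumors and 814, 509, 485, 980 and 608 CPM in lines, a log2 difference of -1.90 ± 0.31 (SE) with an adjusted p of 0.00147. The highest tumor, KPC232, was below the lowest line, KPC204. The proliferation marker gene Mki67 stood at 96.9, 226, 186 and 163 CPM and 597, 330, 473, 581 and 335 CPM (log2 difference -1.47 ± 0.29, adjusted p 0.00377). The spindle checkpoint kinase gene Bub1b (log2 difference -2.21 ± 0.26, adjusted p 0.000275) and the ubiquitin-conjugating enzyme gene Ube2c (log2 difference -1.44 ± 0.30, adjusted p 0.00555), which ends mitosis, were lower too. Of 30 mitosis genes, all tested, 29 were lower and 0 higher, with a median of -1.69. Birc5, survivin, was the gene not called (log2 difference -1.06 ± 0.38, adjusted p 0.0551), though it was called under 7 alternatives, among them both fits with the animal as a block, limma-voom, DESeq2 and the fits without the KPC204 line or the KPC232 tumor. By contrast, Kif23, a kinesin of cell separation, passed narrowly (log2 difference -1.21 ± 0.42, adjusted p 0.0494) and failed under 15 alternatives, among them those without any 1 line except KPC204 and any 1 tumor except KPC202.

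Replication genes moved by a similar amount. Mcm3, a subunit of the replicative helicase, stood at 36.8, 69.8, 93.8 and 86.7 CPM in tumors and 219, 196, 156, 500 and 281 CPM in lines (log2 difference -1.92 ± 0.39, adjusted p 0.00482). Rrm2, the small subunit of ribonucleotide reductase, stood at 65.5, 57.3, 128 and 38.5 CPM and 378, 274, 88.6, 557 and 317 CPM (log2 difference -2.16 ± 0.52, adjusted p 0.0105), and here the KPC204 line lay within the tumors' range. Of 28 genes 27 were lower, with a median of -1.55, and Rfc3 was not called (log2 difference -0.51 ± 0.23, adjusted p 0.109). Both fits with the animal as a block, the fit of all 22 libraries and the fit without the KPC204 line did call Rfc3. The mitosis list summed to 959, 1493, 1865 and 1503 CPM in tumors and 5079, 3681, 3594, 6415 and 4340 CPM in lines. Stromal lists moved in the opposite direction, and the part that non-dividing stromal cells play in these sums was not tested.

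Promoters of mitotic genes are known for a short element, the cell cycle homology region (CHR), that binds repressor and activator complexes, and for CCAAT boxes bound by NF-Y. Windows of 300 bases (250 before and 50 after the start) from RefSeq on GRCm38.p6 were searched for TTTGAA or TTCGAA and for CCAAT, on both strands. A CHR match was found in 21 of the 25 mitosis genes with a window (84.0%), in 5 of 22 replication genes (22.7%) and in 19.4% of all 27025 promoters. A CCAAT match was found in 84.0%, 63.6% and 37.9%, and both in 76.0%, 18.2% and 7.7%. For 12 sterol synthesis genes with a window, searched after their values were seen, the CHR count was 0 and CCAAT was found in 11. These matches describe letters, not bound sites. To show the elements in genes that were all lower in tumors, 200 bases (160 before to 40 after the start) are printed 5′ to 3′ on the gene's strand, with matches in capitals. Capitals thus include each element as read on the opposite strand.
Top2a, chr11:99024150-99024349, minus strand: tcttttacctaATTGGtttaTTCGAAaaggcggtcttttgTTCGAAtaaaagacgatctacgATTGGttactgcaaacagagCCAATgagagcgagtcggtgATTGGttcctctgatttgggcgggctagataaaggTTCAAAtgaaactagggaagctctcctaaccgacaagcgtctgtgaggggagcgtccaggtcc
Mki67, chr7:135716340-135716539, minus strand: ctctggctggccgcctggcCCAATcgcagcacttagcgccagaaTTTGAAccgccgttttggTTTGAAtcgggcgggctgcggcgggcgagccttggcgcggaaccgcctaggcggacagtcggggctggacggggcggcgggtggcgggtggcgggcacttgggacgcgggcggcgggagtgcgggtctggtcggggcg
Ube2c, chr2:164769769-164769968, plus strand: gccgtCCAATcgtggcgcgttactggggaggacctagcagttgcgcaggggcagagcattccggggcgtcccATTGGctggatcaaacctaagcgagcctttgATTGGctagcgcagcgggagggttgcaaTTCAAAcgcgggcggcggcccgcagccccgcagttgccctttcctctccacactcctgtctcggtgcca
Kif23, chr9:61946760-61946959, minus strand: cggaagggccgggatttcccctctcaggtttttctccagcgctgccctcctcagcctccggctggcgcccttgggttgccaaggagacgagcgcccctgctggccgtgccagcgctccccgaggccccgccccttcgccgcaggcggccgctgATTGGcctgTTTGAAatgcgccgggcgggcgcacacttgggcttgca
Hmgcs1, chr13:119690191-119690390, plus strand: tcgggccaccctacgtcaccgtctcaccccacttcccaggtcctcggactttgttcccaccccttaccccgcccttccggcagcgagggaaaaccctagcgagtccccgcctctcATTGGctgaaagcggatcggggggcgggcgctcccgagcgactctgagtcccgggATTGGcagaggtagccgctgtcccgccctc
The window of Top2a holds 3 CHR and 4 CCAAT matches, that of Mki67 2 and 1, that of Ube2c 1 and 3, and that of Kif23 1 and 1. Hmgcs1, a sterol synthesis gene described next, holds 2 CCAAT matches and 0 CHR matches.

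Lipid synthesis genes were lower in tumors as a block. Hmgcs1, which makes the precursor of the mevalonate pathway, stood at 252, 96.5, 181 and 100 CPM in tumors and 478, 442, 498, 375 and 315 CPM in lines (log2 difference -1.42 ± 0.31, adjusted p 0.00601). Sqle, squalene epoxidase, stood at 141, 67.7, 116 and 124 CPM and 256, 344, 369, 314 and 208 CPM (log2 difference -1.41 ± 0.25, adjusted p 0.00233). All 20 sterol synthesis genes were lower, with a median of -1.44. Their sums were 2763, 1344, 2134 and 1323 CPM in tumors and 4271 to 5066 CPM in lines, so the tumors of KPC202 and KPC248 were lowest.

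For fatty acids the largest differences were in the desaturase genes Scd1, Fads1 and Fads2. Scd1, which makes oleate, stood at 149, 148, 128 and 28.6 CPM in tumors and 695, 973, 611, 1270 and 520 CPM in lines (log2 difference -2.84 ± 0.49, adjusted p 0.00213). Fads1, a desaturase of polyunsaturated fatty acids, stood at 54.6, 38.6, 53.7 and 32.9 CPM and 197, 244, 559, 312 and 196 CPM (log2 difference -2.75 ± 0.36, adjusted p 0.000477), and Scd2 at 1496, 334, 1323 and 620 CPM and 3317, 3571, 3818, 5548 and 3154 CPM (log2 difference -2.04 ± 0.42, adjusted p 0.00503). Fasn, fatty acid synthase, was lower by less (log2 difference -1.33 ± 0.24, adjusted p 0.00242). Of 13 tested genes 11 were lower and 0 higher, and 2, Acss2 and Acsl3, were not called.

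Genes that supply amino acids, which the transcription factor ATF4 induces when amino acids run short, were also lower in tumors. Psat1, an enzyme of serine synthesis, stood at 56.1, 71.3, 68.6 and 36.6 CPM in tumors and 333, 373, 501, 555 and 719 CPM in lines, with every line above every tumor (log2 difference -3.09 ± 0.30, adjusted p 0.000108). Asns, asparagine synthetase, stood at 26.3, 50.1, 30.3 and 42.2 CPM and 99.1, 221, 144, 183 and 384 CPM (log2 difference -2.47 ± 0.40, adjusted p 0.00139). Cth, which makes cysteine, stood at 3.39, 1.82, 2.29 and 1.61 CPM and 36.9, 24.9, 27.1, 24.7 and 103 CPM (log2 difference -4.25 ± 0.55, adjusted p 0.000464). The KPC247 line was highest of the lines for all 3. Atf4 itself was not called (log2 difference -0.85 ± 0.32, adjusted p 0.0664) except without the KPC190 line and with all 22 libraries in 1 fit. Of the 20 genes 13 were lower and 1 was higher, with a median of -1.77. The higher one was Fgf21, a stress hormone, at 0.384 to 0.707 CPM in tumors and 0 to 0.149 CPM in lines (log2 difference 2.80 ± 0.72, adjusted p 0.0143). Fgf21 was thus below 1 CPM in every library and was tested only because of the tumors. With a filter of a mean of at least 1 CPM, or at an adjusted p under 0.01, the list had 0 higher calls.

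**Figure D4:**
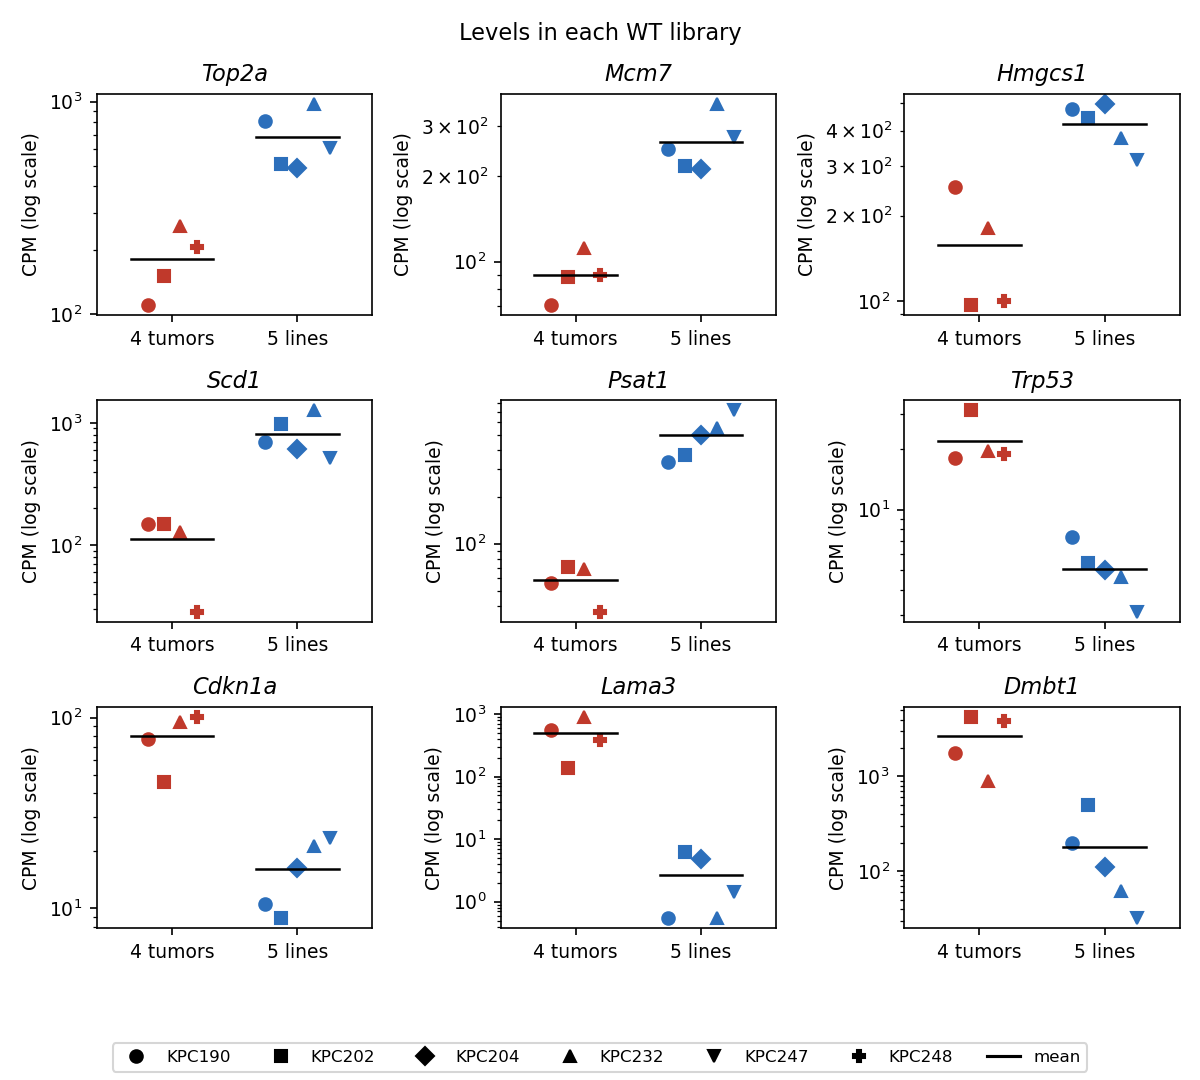
CPM (log scale, y axis) of 9 genes in each WT library, tumors in red and lines in blue, with a symbol per animal and a bar at the group mean. No tumor overlaps a line in any panel; Top2a, Mcm7, Hmgcs1, Scd1 and Psat1 are lower in tumors, and Trp53, Cdkn1a, Lama3 and Dmbt1 are higher.

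Other parts of growth metabolism differed by less. Ribosome biogenesis genes, which build ribosomes in the nucleolus, were lower in 20 of 26 cases, with a median of -0.83. Nolc1, a nucleolar chaperone, stood at 98, 140, 127 and 106 CPM and 253, 269, 232, 381 and 295 CPM (log2 difference -1.28 ± 0.19, adjusted p 0.00087). The ribosomal protein genes themselves showed 2 lower calls among 36 (Rplp0 and Rps2) and a median of -0.05, which was 0.09 with upper quartile factors and 0.08 with library totals alone. With the animal as a block in limma-voom, and with all 22 libraries in 1 fit, 6 ribosomal protein genes were lower. Rplp0 (log2 difference -0.73 ± 0.19, adjusted p 0.0158) was not called without the KPC190 tumor. In oxidative phosphorylation 15 of 28 genes were lower and 1 higher, with a median of -0.57, and the ATP synthase gene Atp5b stood at 853, 623, 797 and 729 CPM and 1338, 1090, 1403, 1970 and 1888 CPM (log2 difference -1.03 ± 0.20, adjusted p 0.00398). That count of lower genes was 8 with upper quartile factors or the 3 shared animals, and 9 without the KPC232 line.

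Of the glycolysis genes, lower levels were called for Pkm, pyruvate kinase (log2 difference -1.23 ± 0.33, adjusted p 0.0168), and Eno1, enolase (log2 difference -0.83 ± 0.18, adjusted p 0.00709). Among the hypoxia-induced genes of the same list, Vegfa, above, and Adm, adrenomedullin, were 2 of only 3 genes of the whole list called higher. Adm stood at 50.6, 8.85, 12.7 and 10.5 CPM in tumors and 0.0777 to 0.368 CPM in lines (log2 difference 6.43 ± 0.72, adjusted p 0.00023). Of the 26 genes of both kinds 6 were lower, 3 higher and 17 not called, with a median of -0.18. Without the tumor of KPC202 or KPC248, 3 were lower. Over all genes tested, 14.0% were lower and 20.0% higher. In the antioxidant response, Nfe2l2, its master regulator, stood at 161, 179, 131 and 178 CPM and 327, 360, 333, 364 and 289 CPM (log2 difference -1.05 ± 0.15, adjusted p 0.000734), and its target Gstm1, a glutathione transferase, at 17.5, 47.5, 52.2 and 32.1 CPM and 213, 280, 409, 331 and 361 CPM (log2 difference -3.09 ± 0.35, adjusted p 0.000237). Of 18 antioxidant genes 9 were lower and 0 higher. Genes of the endoplasmic reticulum showed 1 call among 19, Dnajb9, which was higher (log2 difference 0.93 ± 0.27, adjusted p 0.0237). It was not called at the stricter threshold of 0.01, in the 3 shared animals, without the line of KPC202 or KPC232 or without the tumor of KPC202 or KPC248.

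The largest differences toward the lines were in single genes. By the size of the fitted difference among lower genes beyond 2-fold with a mean of at least 10 CPM in lines, Tmigd1, an epithelial adhesion protein, led with 0.566, 0.32, 1.56 and 0.14 CPM in tumors and 64.8, 89.8, 18.6, 20.7 and 7.14 CPM in lines (log2 difference -5.95 ± 1.01, adjusted p 0.00189). Aldh3a1, an aldehyde dehydrogenase, stood at 2.4, 5.4, 6.35 and 1.47 CPM and 82.2, 205, 14.2, 223 and 80.7 CPM (log2 difference -4.95 ± 0.84, adjusted p 0.00197), and Aqp8, a water channel, at 6.47, 1.05, 0.159 and 0.175 CPM and 32.9, 12.2, 29.4, 60 and 57.8 CPM (log2 difference -4.29 ± 1.11, adjusted p 0.0148). Every line was above every tumor for these 3. Among the other genes of this rank, Foxf2, a forkhead transcription factor, stood at 8.38, 2.17, 8.22 and 1.68 CPM and 52.1, 49.7, 44.4, 77.7 and 23.3 CPM (log2 difference -3.27 ± 0.58, adjusted p 0.00244). Masp1, a complement protease, rested partly on the KPC204 line, at 4.33, 5.61, 71.1, 10.1 and 8.14 CPM in lines and 0.175 to 1.17 CPM in tumors.

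The genes that drive this cancer were then read in each library. Trp53 (ENSMUSG00000059552.13, mm10 chromosome 11, 69580359 to 69591873), which encodes the tumor suppressor p53, stood at 18.1, 31.2, 19.5 and 18.9 CPM in tumors and 7.33, 5.44, 5.01, 4.62 and 3.11 CPM in lines, a log2 difference of 2.10 ± 0.30 (SE) with an adjusted p of 0.000683. All tumors were above all lines. The labels report recombined p53 alleles with loss of heterozygosity in the lines. Reads of Trp53 in a tumor can come from stromal cells with intact alleles as well as from cancer cells, which was not tested. Cdkn1a, the p53 target that encodes the cell cycle inhibitor p21, stood at 77.1, 45.9, 95.3 and 101 CPM and 10.5, 8.84, 16.3, 21.1 and 23.3 CPM (log2 difference 2.32 ± 0.34, adjusted p 0.000839), and the apoptosis gene Pmaip1 at 155, 68.1, 161 and 72.6 CPM and 30.7, 44.1, 44.1, 42.4 and 31.4 CPM (log2 difference 1.57 ± 0.29, adjusted p 0.00297). The p53 targets Mdm2, Ccng1, Bax and Sesn1 were not called. Of 20 targets 6 were higher and 1 lower, with a median of 0.30, and 3 were higher without the tumor of KPC190 or KPC202. Over all genes tested, 20.0% were higher and 14.0% lower, so these counts single out no response of the p53 targets as a set.

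The tumor suppressor gene Cdkn2a stood at 183, 114, 140 and 191 CPM in tumors and 235, 348, 153, 265 and 292 CPM in lines. It was called lower (log2 difference -0.72 ± 0.25, adjusted p 0.0485), as was Myc (log2 difference -0.83 ± 0.27, adjusted p 0.037), but these calls were lost under 15 and 9 alternatives. Cdkn2a was called without the KPC204 line and lost when any other single library was left out, and Myc was lost without the line of KPC190, KPC202 or KPC247 or the tumor of KPC202, KPC232 or KPC248. Outputs of MAPK signalling showed 1 higher and 2 lower calls among 22 genes and a median of -0.20. The counts moved with single libraries. Without the line of KPC190, KPC232 or KPC247 or the tumor of KPC202 or KPC232, 1 gene was lower, and without the line of KPC202, KPC232 or KPC247 or the tumor of KPC190, 0 were higher. Without the KPC202 tumor 3 were higher, and with the animal as a block in limma-voom 2 were higher and 5 lower. The feedback phosphatase gene Dusp6 stood at 356, 144, 181 and 381 CPM and 263, 306, 175, 279 and 329 CPM (log2 difference -0.03 ± 0.31, adjusted p 0.956), and Etv5, an ETS factor, was lower (log2 difference -1.39 ± 0.32, adjusted p 0.00876). Of immediate early genes, Fos stood at 75.1, 46, 62.5 and 61.2 CPM and 11.6, 12.2, 14.6, 6.41 and 30.8 CPM (log2 difference 2.02 ± 0.39, adjusted p 0.00363) and Jun at 104, 75.6, 65 and 147 CPM and 22.7, 19, 36.5, 22.2 and 21.8 CPM (log2 difference 2.0 ± 0.28, adjusted p 0.000649). In that list 8 of 21 were higher and 1 lower. Of the YAP pathway, which senses contact and stiffness, Yap1 itself was lower (log2 difference -0.94 ± 0.19, adjusted p 0.00431), whereas its target Ccn2 was not called (log2 difference 0.37 ± 0.34, adjusted p 0.434). The YAP list had 4 lower and 0 higher calls among 12 genes and a median of -0.49.

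Mir21a, the gene that gives the series its genotypes, had 0 counts in all 9 libraries, so these counts do not check its status. Vmp1, an autophagy gene that contains it, was higher in tumors, at 523, 346, 493 and 341 CPM against 254, 252, 215, 230 and 252 CPM (log2 difference 0.82 ± 0.17, adjusted p 0.00473).

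The difference between tumors and lines was also compared with that in the 8 tumors and 5 lines without microRNA-21. Of 18662 genes in that test of the difference of differences, edgeR called 0, with 1540 at an unadjusted p under 0.05 where chance gives 933.1, and limma-voom called 0, with 1144. The gene with the second smallest p was Ret, whose tumors stood above lines by 5.21 in WT and by 2.55 without microRNA-21 (adjusted p 0.299). With none called, no difference was shown between the genotypes for any gene described above, which does not show that they were the same.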

How the data were processed

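Messenger RNA was sequenced as 75-base single-end reads from a stranded kit, per the labels' protocols. The submitters' processing notes name bcl2fastq 1.9.0, Trim Galore, STAR and the mm10 genome. The counter, its strand setting and the annotation are not given in the sources used here. The authors deposited raw counts per gene, 53342 genes in a table of tumors and a table of lines, of which 105 had no symbol. No gene of the mitochondrial genome was analysed here. Both tables were joined by Ensembl identifier and normalised together, so any difference between the 2 tables' preparation is shared with the difference between tumors and lines and cannot be told apart from it.

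Groups were taken from the sample labels. Genes were kept by filterByExpr and tested with edgeR 4.0.16 in R 4.3.3 (TMM factors, robust quasi-likelihood fit of the 9 libraries, Benjamini-Hochberg adjustment, threshold 0.05), with glmTreat against 2-fold. SE is the log2 difference divided by the root of its F statistic. CPM is the count scaled to the library total times its TMM factor, on the usual CPM scale (for genes detected and the limit of 3 counts, to the library total alone). Alternatives used limma 3.58.1, DESeq2 1.42.0, other factors and filters, left-out libraries and the animal as a block. The scripts were checked on simulated data.

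A number shared by a tumor and a line in the titles was read as the same animal. Their deviations from the group means correlated at 0.346 (KPC190), 0.161 (KPC202) and 0.39 (KPC232) over 15680 genes. The other pairs ranged from -0.221 to 0.249, the highest being the KPC248 tumor with the KPC204 line. The labels state no other relation among the libraries, and litter and sequencing batch are not given. The main fit takes the 9 libraries as independent, though same-animal libraries had a consensus correlation of 0.451 in the blocked limma-voom fit. Its p-values measure the spread between these libraries. No pair of them agreed within counting noise (smallest chi-square per degree of freedom 82.1).

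The members and gene lists were chosen with earlier results of these data known. Genes were named by rule: drivers and sex-linked genes, the 10 largest differences each way beyond 2-fold at 10 CPM or more, up to 6 abundant members of each list with up to 3 going the other way, 3 genes per library with the largest gap to the next library, and the 5 smallest interaction p values. Other list members and Zic2 were named after their values were seen. Some results are not reported here. Gene positions follow GENCODE on mm10. Of the genes named in the text, the counts of Grhl2, Ovol1, Gli1, Twist2, Ube2c, Mcm7, Erbb2, Amigo2, Rftn2, Col4a1 and Col4a2 are uncertain, since an exon of another gene on the opposite strand overlaps them and has at least 5% of their counts.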

Additional observations from a re-analysis of the deposited data

Results flagged for a closer look

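Summed CPM of 110 sets (a gene list in the tumors or in the lines) were examined for a library far from the others of its kind. Of these 18 stood out, where chance gives 5.5 at 1 in 20. Some lists share genes, such as Ttr in the islet and hepatocyte lists, so the sets are not independent. Whether 18 exceeds chance was not tested.

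In tumors, KPC248 was highest for acinar cell genes (789 CPM), intestinal epithelium genes (291 CPM) and ribosome biogenesis genes (3771 CPM). KPC202 was highest for T and NK cell genes (272 CPM) and MHC class I genes (1879 CPM) and lowest for TGF-beta response genes (1968 CPM). KPC232 was highest for skeletal muscle genes (2085 CPM). KPC190 was lowest for adipocyte genes (142 CPM) and highest for p53 targets (1092 CPM).

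In lines, KPC204 was highest for islet genes (224 CPM), of which Ttr gave 223 CPM, and for hepatocyte genes (413 CPM), where Ttr and Alb (127 CPM) stood out. It was also highest for fibroblast genes (20.6 CPM), myofibroblast genes (3092 CPM), matrix genes (6352 CPM) and growth factor genes (1967 CPM). KPC247 was highest for mast cell genes (38.3 CPM), a level given by Kit alone. KPC202 was highest for MHC class I genes (637 CPM), and KPC232 for fatty acid synthesis genes (10635 CPM).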

How the results depend on the processing

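Against 3241 higher and 2261 lower genes, and 1857 and 245 beyond 2-fold, leaving out 1 library gave 2810 to 3598 higher, 1679 to 2411 lower, 1690 to 2166 higher beyond 2-fold and 142 to 299 lower beyond 2-fold (142 without the KPC232 line, 153 without the KPC190 tumor). Lower genes beyond 2-fold numbered 158 with upper quartile factors, 159 with library totals alone and 106 with limma-voom. With all 22 libraries in 1 fit, 5225 were higher, 3452 lower and 3062 higher beyond 2-fold, and at an adjusted p under 0.01 1987 were higher and 998 lower. The cause of these shifts was not tested.

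With the animal as a replicate block, edgeR called 3629 higher and 2557 lower and limma-voom 4605 and 3363. The 3 shared animals without a block gave 3012 and 1908. In the edgeR and limma-voom blocks, lower calls numbered 1 and 1 among collagens, 1 and 1 among Wnt genes, 2 and 2 among growth factor genes, 2 and 3 among immediate early genes and 2 and 2 among endoplasmic reticulum genes, which had 2 and 3 higher calls. Atf4 genes had 2 higher calls in each, oxidative phosphorylation genes 0 higher in the edgeR block, and p53 targets 2 lower in that of limma-voom. The test of the genotype difference called 0 genes in every alternative that was run.

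The share of counts in the 100 most abundant genes differed by 0.1975 percentage points (exact p 0.714), and by -0.2315 (p 0.643) to 0.5506 with 1 library left out, the lowest without the KPC248 tumor. The difference was 1.171 (p 0.0159) for 10 genes and -2.09 (p 0.0476) for 1000.

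Of 215 named genes called, 145 were called under every alternative and 0 reversed. Of 120 not called, 42 passed under some alternative. Uncalled genes that turned were Cxcl12 (main -0.77, lowest -1.53 without the KPC202 tumor), at 6.34 with limma-voom, 9.99 and 7.17 in the edgeR and limma-voom blocks, 10.15 in 3 animals and 7.48 without the KPC204 line, Peg3 (main -3.97, lowest -4.32 without the KPC202 line), at 4.59 in the block, 4.68 in 3 animals and 4.92 without the KPC204 line, Amigo2 (main -1.65, lowest -2.08 without the KPC202 tumor), at 4.87 and 3.64 in the blocks, 4.85 in 3 animals and 5.00 without the KPC247 line, Alb (main -2.56), at 3.88 in the edgeR block, and Rftn2 (main -1.25), at 2.78 in the block. Genes listed at 0 in lines are limited by depth: 3 counts over the 5 lines are 0.02234 CPM.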

Other observations

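Neighbouring genes that stood apart together in 1 library were counted by a rule made after the data were seen. Over 10496 genes with a median of at least 5 CPM, medians of log2 ratios to the median of the other libraries of the kind (with 0.5 CPM added) were taken in windows of 9 neighbouring genes, and 3 successive windows beyond 0.8 made a run. There were 28 runs in tumors and 57 in lines.

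Runs in the same place and direction numbered 6 in the 3 pairs of tumor and line from 1 animal, and 4 in the 17 other pairs, of which 13 had none. KPC202 shared 3, on chromosomes 4 and 9, and KPC232 shared 2, of which the one on chromosome 6 (48395586 to 48847071) was lower, at -0.94 in the tumor and -1.28 in the line. That last region was higher in the KPC248 tumor (1.59) and the KPC204 line (1.35). Genes at 5 CPM or more that stood at least 1 above every other sample of their kind on log2(CPM + 1), in both a tumor and a line, numbered 17, 10 and 9 in the pairs of KPC190, KPC202 and KPC232, and 0 to 43 in other pairs, with 43 in the KPC248 tumor and the KPC204 line. These are counts, and no test was made.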
